A study of Mus musculus with 40 samples.

Results

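Whole lungs of AJ mice were compared 24 h and 6 h after the animals had aspirated an allergen, so that the inflamed lung was set against itself at a later and an earlier time, with no subtraction of saline controls. The comparison used 10 of the 40 one-colour Affymetrix arrays of the series, 5 at 24 h and 5 at 6 h, chosen by the strain, treatment and time in their titles. The AJ strain is called hyperresponsive in the labels, and the allergen was given in phosphate-buffered saline (PBS). For context, the same 2 times were also read in AJ mice given PBS alone (5 arrays each) and in C3H mice given allergen (5 arrays each). Titles abbreviate the allergen as OVA and descriptions as HDM, so it is called allergen here. Strain follows the titles, since all descriptions name AJ, even those of the 20 arrays titled C3H. The labels give neither age nor sex, and they do not say that each array of a group is a separate mouse, so p-values reflect a spread that may be partly technical. Because whole lung was measured, fewer cells of a type and less RNA per cell cannot be told apart.

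Inhaled allergen in a sensitised or susceptible airway is known to set off an early wave of signalling in which epithelial cells and macrophages release chemokines and cytokines and neutrophils arrive. Transcription factors of the NF-kappa B family drive many of these early genes, and the same factors induce inhibitors that shut the signal down. A slower type 2 programme, run by IL-4 and IL-13, makes goblet cells produce mucus, turns macrophages to an alternative state marked by arginase, and draws eosinophils through the eotaxins.

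The arrays of the comparison had median intensities of 71.7 to 75.9 at 24 h and 63.7 to 74.6 at 6 h after the authors' scaling to a common trimmed mean. Across genes, pairs of arrays correlated at 0.965 to 0.978 within 24 h, 0.955 to 0.976 within 6 h and 0.929 to 0.954 between the times. The 3'/5' signal ratio of the actin control probes, a measure of RNA integrity, was 1.03 to 1.17 at 24 h and 1.14 to 1.92 at 6 h (exact permutation test, two-sided p = 0.0238, 0.0714 after Benjamini-Hochberg adjustment over 3 such measures). Arrays 1 and 2 at 6 h had the highest Gapdh ratios, and arrays 4 and 5 at 6 h were rich in muscle transcripts, as described with the muscle markers, so both pairs were left out in turn. Array 1 at 24 h was also rich in skeletal muscle markers. Their mean log2 level was 8.39 there, against 8.22 and 8.73 on 6 h arrays 4 and 5. Lung markers were bright throughout, with surfactant protein C (Sftpc) at 4318 to 7790.3 at 24 h and 4206 to 5664 at 6 h and the club cell secretoglobin Scgb1a1 at 4189.9 to 7444 at 24 h and 4492 to 5199.9 at 6 h.

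Of 12393 genes, 2373 (19.1%) changed between 24 h and 6 h at an adjusted p under 0.05. At 24 h 1508 (12.2%) were higher and 865 (6.98%) were lower, and the median log2 change of all genes was 0.06. Counts of list members called in this comparison are to be read against these shares. This split depends on how arrays are scaled. Centring every array on its median moved that median to -0.06 and gave 818 higher and 1319 lower genes, so that the share of calls that were higher was 38.3%, against 63.5% with the authors' scaling. With quantile normalization 1142 were higher and 1065 lower, 51.7% higher. The large changes lay mostly on the lower side: among genes that passed, 198 were at least 1 log2 unit lower and 106 at least 1 log2 unit higher. The 24 h arrays all lay below the 6 h arrays in 663 genes (5.35%) and all above them in 1109 genes (8.95%). The plot of change against level shows the falls reaching further from 0 than the rises.

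**Figure D1:**
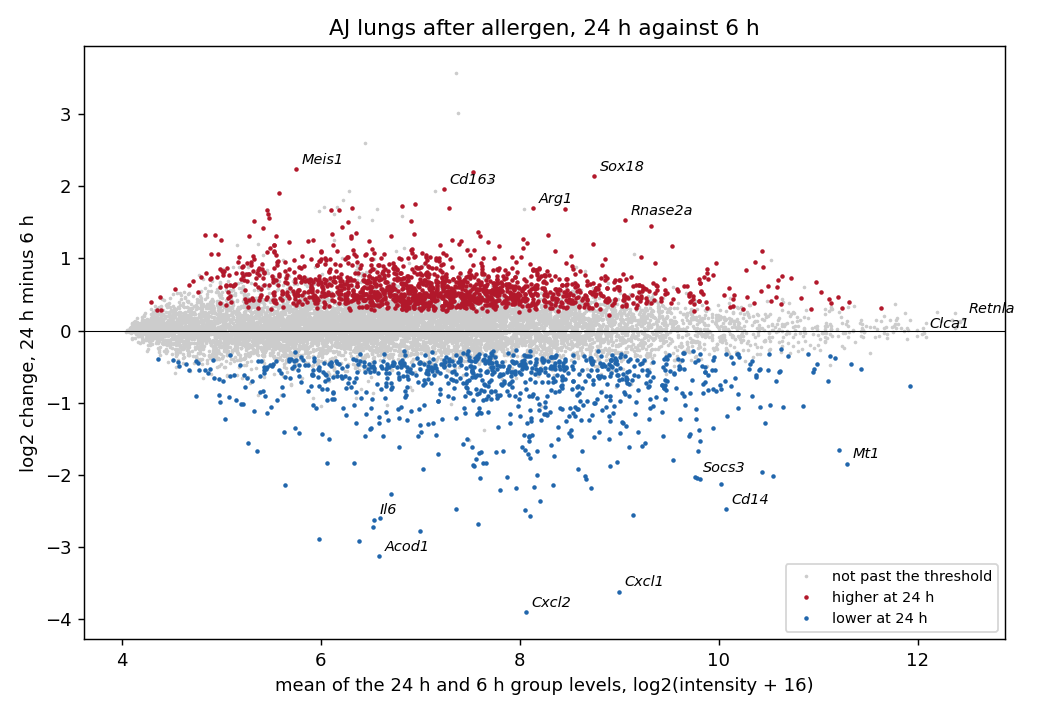
Log2 change between 24 h and 6 h after allergen in AJ lungs (y axis) against the mean of both group levels on the log2(intensity + 16) scale (x axis), 1 point per gene. Red points passed the test as higher at 24 h (1508 genes) and blue points as lower (865 genes). The falls reach -3.90 in Cxcl2, the rises that passed reach 2.23 in Meis1, and the very bright goblet cell gene Clca1 lies near 0.

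The 2 genes that fell furthest were chemokines that attract neutrophils. Cxcl2 had intensities of 51.9, 53.4, 66.3, 44.9 and 52.2 on the 24 h arrays, against 1129, 1918, 1034, 601 and 820.2 on the 6 h arrays. The groups were far apart, and Cxcl2 fell by 3.90 ± 0.25 on the log2 scale (SE, adjusted p = 1.72e-14). Cxcl1 read 138, 168, 178, 169 and 49.8 on the 24 h arrays, against 1709, 2134, 1851, 1388 and 1906 on the 6 h arrays, so that 24 h array 5 was the lowest and no arrays overlapped (log2 change -3.62 ± 0.33, adjusted p = 1.99e-10). Cxcl5, which is made largely by alveolar epithelium in mouse lung, changed by -2.49 ± 0.32 and also had no overlap, at 40.5 to 138 at 24 h and 456 to 792 at 6 h. Of 7 measured neutrophil-attracting chemokines and receptors 5 were lower and 0 higher, with a median log2 change of -1.08.

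Chemokines for monocytes, dendritic cells and lymphocytes moved in part. Ccl3, a ligand for monocytes and other leukocytes, was 13.3 to 46.2 at 24 h and 176 to 473 at 6 h (log2 change -2.78 ± 0.28, adjusted p = 2.19e-09). Ccl20, which draws CCR6-bearing dendritic cells and T cells, was 11.2 to 24.8 at 24 h and 147 to 334 at 6 h (log2 change -2.91 ± 0.24). Cxcl10, an interferon-induced ligand of CXCR3, was 38.9 to 98.2 at 24 h and 253 to 686 at 6 h (log2 change -2.67 ± 0.22). For each of these 3 genes all 24 h arrays lay below all 6 h arrays, which was a condition of being picked among the largest falls. Against them, Ccl8 rose, with 2242, 2004, 1935, 1929 and 1964 on the 24 h arrays, against 1175, 850.3, 774, 1021 and 862 on the 6 h arrays (log2 change 1.11 ± 0.20, adjusted p = 9.08e-05), and the stromal ligand Cxcl12 rose by 0.85 ± 0.13. Cxcl12 rose as much in PBS lungs, by 0.83 ± 0.13, and its time changes did not differ at the threshold (difference 0.01 ± 0.18, adjusted p = 0.984). Ccl8 changed by -0.08 ± 0.20 in PBS lungs (difference 1.19 ± 0.28, adjusted p = 0.00755). In the monocyte and eosinophil chemokine list 5 of 14 were lower and 1 higher, and without 24 h array 5 the lower count was 3. In the lymphocyte and dendritic cell list 3 of 13 were lower and 1 higher.

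Most early cytokines fell along with the chemokines. Il6, the fever and acute phase cytokine, read 19.8, 21.8, 26.4, 24.4 and 16.2 on the 24 h arrays, against 241, 599, 127, 159.8 and 148 on the 6 h arrays. The highest 24 h array stayed well below the lowest 6 h array, with array 2 the highest at 6 h (log2 change -2.62 ± 0.21, adjusted p = 1.22e-11). Csf3, the growth factor of neutrophils, read 9.54, 5.46, 11.6, 5.26 and 5.65 on the 24 h arrays, against 125, 556, 144, 119.8 and 70.1 on the 6 h arrays. Its 24 h values were near the floor of the scale (log2 change -2.88 ± 0.35, adjusted p = 9.33e-08). Tnf was 13.3 to 70.1 at 24 h and 85.3 to 239 at 6 h (log2 change -1.84 ± 0.26) and Il1b was 204 to 299 at 24 h and 573 to 1326 at 6 h (log2 change -1.81 ± 0.24), again with no overlap. Of 15 measured early cytokines 10 were lower and 0 higher, with a median log2 change of -0.68. For dim genes the size depends on the value added before taking logs: with 64 in place of 16 the log2 change was -1.67 for Csf3, -1.73 for Il6, -1.13 for Tnf and -1.82 for Ccl20, and all stayed past the threshold.

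The promoters of Cxcl2 and Il6 are shown because the inflammatory factor NF-kappa B is known to act on both genes, which were among those that fell furthest. Each line gives the 200 bases before the annotated gene start on the gene's strand, from RefSeq on build GRCm38.p6, with matches to a kappa B motif on either strand in capitals (GGGA, any 1 base, then TTTCC). Cxcl2 lies at chr5:90903699-90903898 on the plus strand with its match beginning 97 bases before the start, and Il6 lies at chr5:30012914-30013113 on the plus strand with its match beginning 44 bases before the start.
Cxcl2: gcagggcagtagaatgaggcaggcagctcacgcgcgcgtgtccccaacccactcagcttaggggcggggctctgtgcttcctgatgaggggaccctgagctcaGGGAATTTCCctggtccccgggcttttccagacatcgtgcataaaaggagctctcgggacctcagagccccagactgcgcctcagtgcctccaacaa
Il6: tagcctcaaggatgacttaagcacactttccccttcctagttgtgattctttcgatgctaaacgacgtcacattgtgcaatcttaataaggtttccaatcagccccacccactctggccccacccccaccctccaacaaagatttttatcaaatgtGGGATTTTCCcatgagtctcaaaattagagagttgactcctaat
In RefSeq windows of 250 bases before to 50 after the start, available for 9887 genes, the motif stood in 59 (0.597%). It stood in 2 of 6 neutrophil-attracting chemokines with a window (Cxcl1 and Cxcl2) and in 2 of 12 early cytokines. Among the genes that fell it stood in 7 of 702 with a window (0.997%), and among those that rose in 11 of 1246 (0.883%).

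**Figure D2:**
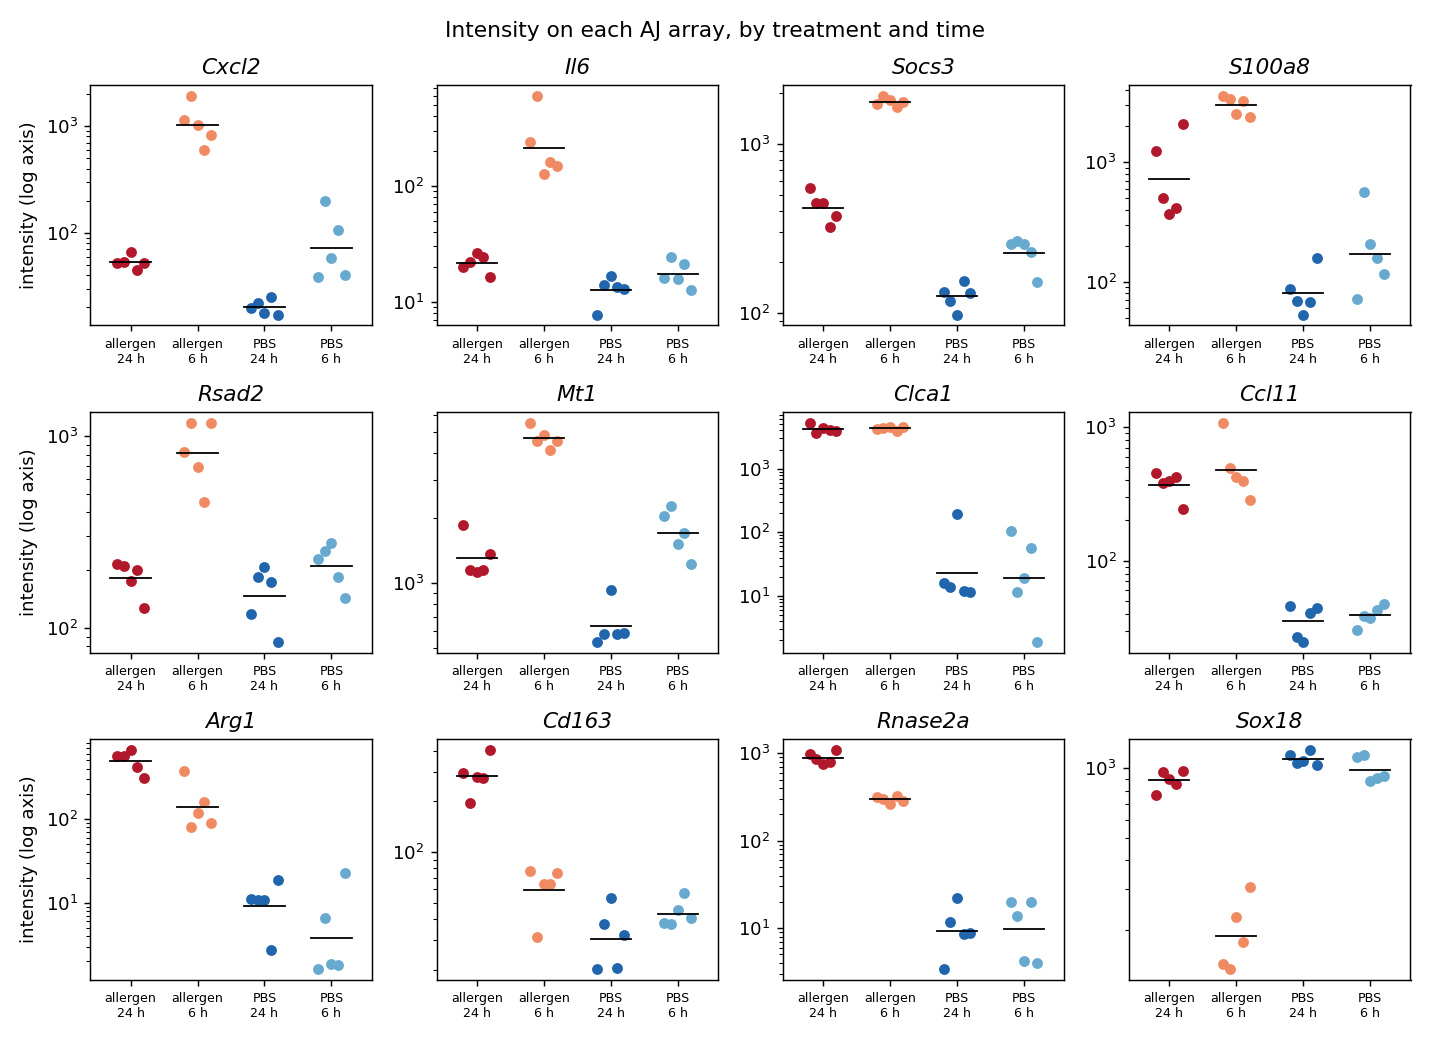
Intensity on each AJ array (log axis) for 12 genes, with 24 h left of 6 h for allergen and then for PBS. Points are arrays, 5 per group, and bars are geometric means. Cxcl2, Il6, Socs3, S100a8, Rsad2 and Mt1 are lower at 24 h than at 6 h after allergen, Clca1 and Ccl11 overlap between the times, and Arg1, Cd163, Rnase2a and Sox18 are higher at 24 h.

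Inducible inhibitors of the same pathways fell in nearly every measured case. Of 19 feedback inhibitors 16 were lower and 0 higher, with a median log2 change of -0.96. Socs3, which blocks signalling from the IL-6 family, read 545, 445, 443, 323 and 371 on the 24 h arrays, against 1724, 1913, 1812, 1644 and 1758 on the 6 h arrays. The nearest arrays of the groups were still far apart (log2 change -2.04 ± 0.17, adjusted p = 1.91e-11). Zc3h12a, the ribonuclease that degrades cytokine transcripts, changed by -2.59 ± 0.18, Bcl3, an atypical I-kappa B protein, by -2.20 ± 0.19 and Tnfaip3, the ubiquitin editor A20, by -1.71 ± 0.15. Immediate early transcription factors, which are switched on within minutes of a stimulus, were lower in 15 of 26 and higher in 1. Maff changed by -2.48 ± 0.18, Myc by -1.86 ± 0.17, Egr1 by -1.60 ± 0.23 and Atf3 by -1.50 ± 0.34. The exception was Klf2, the flow-sensitive factor of endothelium, which rose by 1.20 ± 0.20 (adjusted p = 3.61e-05) and is named as the single exception, after its value was seen.

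Several single enzymes and soluble factors of the early response were among the 20 largest falls. Acod1, the enzyme that makes itaconate in activated macrophages, read 49.1, 12.5, 24.3, 9.57 and 3.25 on the 24 h arrays, against 363, 435, 259.6, 158 and 209 on the 6 h arrays, so that every 24 h array lay below every 6 h array (log2 change -3.12 ± 0.32, adjusted p = 1.62e-09). Ptx3, the long pentraxin that coats microbes, was 16.2 to 26.8 at 24 h and 147 to 328 at 6 h (log2 change -2.72 ± 0.16, adjusted p = 2.68e-15). Tnfrsf12a, the receptor of the cytokine TWEAK, changed by -2.56 ± 0.21, Sphk1, which makes sphingosine 1-phosphate, by -2.36 ± 0.18, Rcan1, a calcineurin inhibitor, by -2.18 ± 0.14 and Ptpn2, a phosphatase that dampens JAK signalling, by -2.55 ± 0.29. Probe sets of Ptpn2 disagreed in size, from -2.55 to -0.34, and so did those of Sphk1, from -2.36 to -1.03.

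Many genes of innate sensing and of neutrophils were lower at 24 h. Cd14, the co-receptor for lipopolysaccharide, read 424, 529, 462, 444 and 362 on the 24 h arrays, against 2988, 2586, 2744, 2090.4 and 2288 on the 6 h arrays, a clear separation at high intensity (log2 change -2.47 ± 0.19, adjusted p = 2.77e-12). Trem1, the amplifying receptor of neutrophils and monocytes, changed by -1.84 ± 0.18 and the C-type lectin Clec4e by -1.70 ± 0.26. Of 21 innate sensors 9 were lower and 2 higher. Of 21 neutrophil markers 13 were lower and 1 higher, with a median log2 change of -1.08. S100a8, a subunit of calprotectin, read 1232, 505, 368, 412 and 2069 on the 24 h arrays, against 3582, 3373, 2513, 3234 and 2398 on the 6 h arrays. Arrays 1 and 5 stayed highest at 24 h, yet no array reached the 6 h range (log2 change -2.02 ± 0.46, adjusted p = 0.00136). S100a9 followed at -1.95 ± 0.50, the granule protein Ngp at -2.02 ± 0.22, with 78.1 to 151 at 24 h and 307 to 711 at 6 h, and the decoy receptor Il1r2 at -2.18 ± 0.21. The summed intensity of the neutrophil markers was 5827 to 10960 at 24 h and 11480 to 15210 at 6 h. Several chemokine and sensor genes above are expressed by neutrophils too, and the part of this marker shift in their change was not tested.

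The antiviral interferon response fell in part. Of 25 measured members 13 were lower and 0 higher, with a median log2 change of -0.44. Rsad2, the antiviral enzyme viperin, read 216, 210.0, 176, 200.4 and 126 on the 24 h arrays, against 822, 1169, 691, 455 and 1169 on the 6 h arrays. Array 4 was the lowest at 6 h and still above every 24 h array (log2 change -2.06 ± 0.21, adjusted p = 3.32e-09). Mx2, an antiviral GTPase, was 4.86 to 10.2 at 24 h and 15.8 to 189 at 6 h (log2 change -2.13 ± 0.25), with 6 h array 4 again the lowest of its group. Its 24 h values were near the floor of the scale. The size for Mx2 rests on the value added before taking logs, at -3.25 with 1 and -1.16 with 64. Oasl1 changed by -1.68 ± 0.16, Rtp4 by -1.50 ± 0.18 and Ifit2 by -1.09 ± 0.18. Probe sets of Rtp4 ran from -1.50 to -0.60. Among interferon gamma GTPases and their regulators 7 of 13 were lower and 0 higher, led by Irgm2 at -1.20 ± 0.26 and Iigp1 at -1.03 ± 0.20, both immunity-related GTPases of mice.

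The promoters of Rsad2 and Ifit1 are shown because the group shares a known control element. Ifit1 (log2 change -1.44 ± 0.18, with 133 to 189 at 24 h and 245 to 641 at 6 h) was picked for its promoter and not by the rule for named genes. Each line again gives the 200 bases before the start on the gene's strand, RefSeq build GRCm38.p6, with matches to the interferon-stimulated response element on either strand in capitals (GAAA, any 2 bases, then GAAA). Ifit1 lies at chr19:34640689-34640888 on the plus strand with matches beginning 104 and 85 bases before the start, and Rsad2 at chr12:26456453-26456652 on the minus strand with a match beginning 120 bases before it.
Ifit1: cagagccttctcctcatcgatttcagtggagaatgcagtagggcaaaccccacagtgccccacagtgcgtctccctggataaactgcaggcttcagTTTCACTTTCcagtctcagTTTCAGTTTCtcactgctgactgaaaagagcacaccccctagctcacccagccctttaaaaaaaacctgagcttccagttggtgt
Rsad2: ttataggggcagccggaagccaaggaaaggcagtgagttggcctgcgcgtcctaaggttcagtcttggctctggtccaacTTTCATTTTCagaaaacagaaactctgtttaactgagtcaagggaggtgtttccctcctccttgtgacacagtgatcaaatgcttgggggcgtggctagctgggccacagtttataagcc
In the RefSeq windows of 250 bases before to 50 after the start the motif stood in 10 of 17 list members with a window (58.8%), against 380 of all 9887 genes with one (3.84%). Among all genes that fell the share was 32 of 702 (4.56%), and among those that rose 39 of 1246 (3.13%). A match of letters is a description of the promoter and not a measured binding site.

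The type 2 effector genes gave another picture. Clca1, a secreted protein of goblet cells, read 5221, 3581, 4365, 4023 and 3933 on the 24 h arrays, against 4196, 4408, 4579, 3907 and 4468 on the 6 h arrays, values that overlapped throughout (log2 change -0.04 ± 0.55, adjusted p = 0.977). In PBS lungs its mean intensity was 49.1 ± 80.0 at 24 h and 39.0 ± 42.9 at 6 h after PBS (SD, n = 5 each). Muc5ac, the main inducible airway mucin, was 147 to 252 at 24 h and 136 to 294 at 6 h (log2 change -0.25 ± 0.32, adjusted p = 0.674), and the goblet cell lectin Itln1 was 742 to 908 at 24 h and 632 to 1113 at 6 h (log2 change -0.20 ± 0.26, adjusted p = 0.675). Of 26 mucus and goblet cell genes 1 was higher and 2 were lower, beside 12.2% higher and 6.98% lower among all genes. The lower count is near its share. Without 6 h arrays 1 and 2 there were 0 calls in either direction. The eotaxin Ccl11 was 244 to 457 at 24 h and 282 to 1072 at 6 h (log2 change -0.35 ± 0.27, adjusted p = 0.427) and Ccl24 was 153 to 392 at 24 h and 178 to 492 at 6 h (log2 change -0.12 ± 0.31, adjusted p = 0.86). A p that misses the threshold does not show equal levels: the 95% interval of the log2 change ran from -1.15 to 1.07 for Clca1, whose spread in PBS lungs enters the fit, from -0.90 to 0.40 for Muc5ac and from -0.91 to 0.20 for Ccl11.

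The cytokines that drive this programme were dim, and lower at 24 h. Il4 read 36.9, 54.2, 55.8, 32.6 and 38.3 on the 24 h arrays, against 153, 93.3, 139, 119.6 and 82.3 on the 6 h arrays, with no overlap (log2 change -1.15 ± 0.17, adjusted p = 4.3e-06). Il13 was 9.98 to 24.6 at 24 h and 11.7 to 41.0 at 6 h (log2 change -0.66 ± 0.21, adjusted p = 0.022) and Il5 was 2.07 to 13.6 at 24 h and 9.21 to 25.8 at 6 h (log2 change -0.55 ± 0.19, adjusted p = 0.0326), both with overlapping groups and near the floor of the scale. Both calls could be lost by leaving out 1 array, that of Il13 without 24 h array 1, 2 or 5 or 6 h array 1, 3 or 4 (adjusted p 0.0528 to 0.0596) and that of Il5 without 24 h array 1 or 5 or 6 h array 1, 2 or 5 (adjusted p 0.057 to 0.108). The receptor chain Il4ra fell as well (-1.40 ± 0.17), with probe sets from -1.40 to -0.23. In the type 2 cytokine and receptor list 5 of 13 were lower and 0 higher, and 3 were lower without 24 h array 1 or 6 h array 1.

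Some macrophage genes were among the larger rises. Cd163, the macrophage receptor for haemoglobin bound to haptoglobin, read 293, 194, 279, 275 and 402 on the 24 h arrays, against 77.5, 31.1, 64.8, 64.6 and 75.1 on the 6 h arrays, with no overlap (log2 change 1.96 ± 0.20, adjusted p = 2.67e-09). Marco, a scavenger receptor of alveolar macrophages, read 173, 176, 164, 213 and 227 on the 24 h arrays, against 63.2, 34.7, 19.6, 58.0 and 72.5 on the 6 h arrays (log2 change 1.72 ± 0.29, adjusted p = 4.04e-05). Arg1, arginase of alternatively activated macrophages, read 565, 568, 663, 423 and 312 on the 24 h arrays, against 379, 79.9, 118, 158 and 90.4 on the 6 h arrays. Here 6 h array 1 stood above 24 h array 5, so the groups overlapped at their edge (log2 change 1.69 ± 0.34, adjusted p = 0.000284). Npl, which breaks down sialic acid, changed by 1.35 ± 0.11, with 96.8 to 128 at 24 h and 31.5 to 43.7 at 6 h. Of 29 macrophage and monocyte markers 10 were higher and 1 lower (median log2 change 0.24), and their summed intensity was 22710 to 30660 at 24 h and 21840 to 23990 at 6 h. Alternative activation was mixed, with 5 of 18 higher and 4 lower, beside 12.2% higher and 6.98% lower among all genes. The bright markers Retnla and Chil3, named after their values were seen, did not pass, at 0.16 ± 0.20 and 0.33 ± 0.23. Leaving out 24 h array 1 or 5, or 6 h array 3 or 5, left 3 of the 5 higher calls.

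Rnase2a, an eosinophil-associated ribonuclease, read 997, 855, 757, 803 and 1088 on the 24 h arrays, against 315, 305, 266, 326 and 284 on the 6 h arrays. The rise was the only call among 7 eosinophil markers and was uniform over arrays (log2 change 1.53 ± 0.30, adjusted p = 0.000213). Complement genes were higher in 5 of 18 and lower in 0, where 12.2% of all genes were higher. Without 24 h array 1 or 6 h array 1, 3 or 5 the higher count was 3 of 18, near that share. Cfb, factor B of the alternative pathway, read 585, 482, 435, 501 and 407 on the 24 h arrays, against 215, 239, 139, 142 and 192 on the 6 h arrays (log2 change 1.32 ± 0.21, adjusted p = 1.25e-05), and C1qc, a chain of C1q made by macrophages, changed by 0.83 ± 0.17. Dendritic cell markers went the other way, with 5 of 14 lower, led by the maturation marker Cd83 (-2.01 ± 0.27) and the CCR4 ligand Ccl17 (-1.84 ± 0.22).

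Sox18, a transcription factor of endothelium, read 766, 962, 895, 853 and 977 on the 24 h arrays, against 142, 136, 226, 177 and 307 on the 6 h arrays (log2 change 2.14 ± 0.18, adjusted p = 2.68e-11). In PBS lungs its mean intensity was 1102 ± 68.0 at 24 h and 995 ± 125 at 6 h after PBS (SD, n = 5 each), so that the 24 h allergen lungs were close to the PBS range and the 6 h allergen lungs far below it. Sox17, its relative, read 274, 229, 222, 189.6 and 243 on the 24 h arrays, against 78.7, 107, 93.2, 68.3 and 93.4 on the 6 h arrays (log2 change 1.25 ± 0.18). Hey1, a Notch target, was 138 to 216 at 24 h and 39.1 to 83.5 at 6 h (log2 change 1.51 ± 0.14), Smad6, an inhibitor of BMP signalling, was 501 to 796 at 24 h and 100.3 to 264 at 6 h (log2 change 1.69 ± 0.22), and Meis1, a homeobox factor, was 80.5 to 134 at 24 h and 3.11 to 23.4 at 6 h (log2 change 2.23 ± 0.24). The size for Meis1 rests on the value added, at 3.53 with 1 and 1.17 with 64. Cxcr4, the receptor of Cxcl12, was 240.1 to 306 at 24 h and 55.4 to 91.4 at 6 h (log2 change 1.70 ± 0.16). None of these 6 genes had overlapping groups, which for Sox18, Hey1, Smad6 and Cxcr4 was a condition of being picked among the largest rises. Of all genes 8.95% lay higher at 24 h without overlap. Among 28 endothelial markers 9 were higher and 4 lower (median log2 change 0.22), with Calcrl and Ramp2, which together form the adrenomedullin receptor, at 0.93 ± 0.21 and 0.88 ± 0.15. Their ligand Adm fell, with 20.1 to 57.4 at 24 h and 125 to 319.5 at 6 h (log2 change -2.26 ± 0.23, adjusted p = 1.1e-09).

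Other large rises came from genes of varied function. Timp1, the inhibitor of matrix metalloproteinases, read 1363, 1186, 1197, 1178 and 524 on the 24 h arrays, against 469, 302, 363, 404 and 336 on the 6 h arrays (log2 change 1.45 ± 0.20, adjusted p = 7.2e-07). Fst, which binds activin, changed by 1.34 ± 0.20, and Ltb, the membrane-bound lymphotoxin chain, by 1.75 ± 0.37. Nfic had the largest rise among genes with a group mean of at least 7 on the log2 scale and no overlap (2.20 ± 0.36), yet its probe sets ran from 0.44 to 2.20 and its 6 h arrays read 8.60, 123, 54.6, 134 and 118, and Xpo1, the nuclear export receptor, changed by 1.37 ± 0.18 with probe sets from -0.05 to 1.37. The remaining members of the 20 largest rises were Josd2, Ints3, Pnkd, Nudt2 and Akr1c14, from 1.27 to 1.70. Probe sets of Ints3 ran from 0.57 to 1.67 and those of Pnkd from 0.89 to 1.51.

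Thbs1, thrombospondin, read 459, 462, 423, 461 and 329 on the 24 h arrays, against 2081, 1563, 1985, 1786 and 1682 on the 6 h arrays (log2 change -2.05 ± 0.13, adjusted p = 2.6e-14). Mmp8, the neutrophil collagenase, changed by -1.87 ± 0.30 and Adamts1 by -1.65 ± 0.15. Of 26 proteases and inhibitors 8 were lower and 4 higher, and of 30 collagens and matrix genes 4 were lower and 4 higher (median log2 change 0.05). Both higher counts are near the share of all genes, 12.2%. Among matrix genes that passed were the collagen VI chains Col6a2 and Col6a1 at 0.70 ± 0.13 and 0.62 ± 0.12 and the elastic fibre protein Fbln5 at -1.03 ± 0.14.

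Most glucocorticoid targets fell. Of 22 glucocorticoid targets 16 were lower and 1 higher, with a median log2 change of -0.97. The metallothionein Mt1 read 1856, 1148, 1127, 1153 and 1358 on the 24 h arrays, against 5519, 4571, 4882, 4136 and 4559 on the 6 h arrays (log2 change -1.84 ± 0.18, adjusted p = 6.25e-10), Errfi1, a feedback inhibitor of EGF receptors, changed by -2.03 ± 0.18 and Pdk4 by -1.68 ± 0.36. The glutathione enzyme Gclc read 659, 504, 489, 498 and 321 on the 24 h arrays, against 1963, 1870.5, 2215, 2238 and 2526 on the 6 h arrays (log2 change -2.12 ± 0.20, adjusted p = 4.3e-10). Thioredoxin reductase Txnrd1 was 353 to 427 at 24 h and 1219 to 1588 at 6 h (log2 change -1.79 ± 0.10), and sulfiredoxin Srxn1 changed by -1.21 ± 0.16. Over the antioxidant and haem list 9 of 23 were lower and 4 higher, with a median log2 change of -0.01. In the hypoxia and glycolysis list 7 of 23 were lower and 2 higher, with Pfkfb3, a switch enzyme of glycolysis, at 103 to 150.1 at 24 h and 420.1 to 794 at 6 h (adjusted p = 5.53e-10) and a log2 change of -1.14 ± 0.19 in Hif1a, the oxygen-sensitive transcription factor.

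Clock genes were read as well, since the labels give no hour of day. Dbp, a strongly rhythmic output gene, did not pass at -0.17 ± 0.21 (adjusted p = 0.667), nor did the core factor Arntl at -0.14 ± 0.15 (adjusted p = 0.614). Of 20 clock genes 5 were lower and 2 higher, beside 6.98% lower and 12.2% higher among all genes, so that the higher count is near its share. Among the lower ones were Nr1d1 at -0.96 ± 0.22, Nfil3 at -1.22 ± 0.18 and Per1, which is also a glucocorticoid target, at -1.02 ± 0.21.

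Genes of protein folding, sterol synthesis and DNA replication were higher in part. Creld2, induced by stress of the endoplasmic reticulum (ER), read 295, 448, 267, 290.5 and 201 on the 24 h arrays, against 102, 137, 109, 94.4 and 98.7 on the 6 h arrays (log2 change 1.31 ± 0.15, adjusted p = 2.29e-08), and Pdia6, a disulfide isomerase, changed by 1.01 ± 0.15, with probe sets from 0.04 to 1.01 and 0.53 as their mean. Of 25 ER genes 8 were higher and 2 lower, and 4 were higher with median centring. Of 23 cholesterol and fatty acid genes 10 were higher and 2 lower, with squalene epoxidase Sqle at 0.84 ± 0.17 and 6 higher with median centring or without 6 h arrays 4 and 5. Of 33 replication genes 11 were higher and 0 lower, with geminin Gmnn at 1.09 ± 0.14 and ribonucleotide reductase Rrm2 at 0.89 ± 0.15, and 7 were higher with median centring or without 6 h arrays 4 and 5. Of 41 cell division genes 2 were higher and 1 lower, or 5 higher without 6 h array 1, where 12.2% of all genes were higher, and the proliferation marker Mki67 stood at -0.10 ± 0.25 (adjusted p = 0.851). Ribosome biogenesis had 6 of 28 lower and 1 higher, and oxidative phosphorylation 1 of 35 higher and 0 lower.

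Markers of other cell types gave few calls, beside shares over all genes of 12.2% higher and 6.98% lower. T and NK cell markers were lower in 2 of 27 and higher in 1, although 24 h array 3 was rich in them, and their summed intensity was 2003 to 3741 at 24 h and 2228 to 2976 at 6 h. B and plasma cell markers were lower in 1 of 15, ciliated cell and erythroid markers passed in 0 of 9 each, and adipose markers in 0 of 14. Alveolar markers were higher in 3 of 16, led by Etv5, a factor of type 2 pneumocytes, at 1.20 ± 0.19, and lower in 0. Cardiac muscle markers were lower in 3 of 20, with a summed intensity of 3216 to 4001 at 24 h and 2859 to 17570 at 6 h. Array 5 at 6 h, and to a lesser degree array 4, carried that signal: without both arrays 0 were lower, and without arrays 1 and 2 instead 9 were. Among single arrays, the count was 1 without 24 h array 1 or 6 h array 5, 5 without 24 h array 5 and 7 without 6 h array 1. Myl7, an atrial myosin light chain, read 143, 267, 359, 509 and 469 on the 24 h arrays, against 467, 567, 754, 754 and 2174 on the 6 h arrays, which shows the lead of 6 h array 5 (log2 change -1.28 ± 0.31; -0.84 and adjusted p = 0.0667 without 6 h arrays 4 and 5). Skeletal muscle markers passed in 0 of 18, with a summed intensity of 938 to 11580 at 24 h and 820 to 11450 at 6 h.

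**Figure D3:**
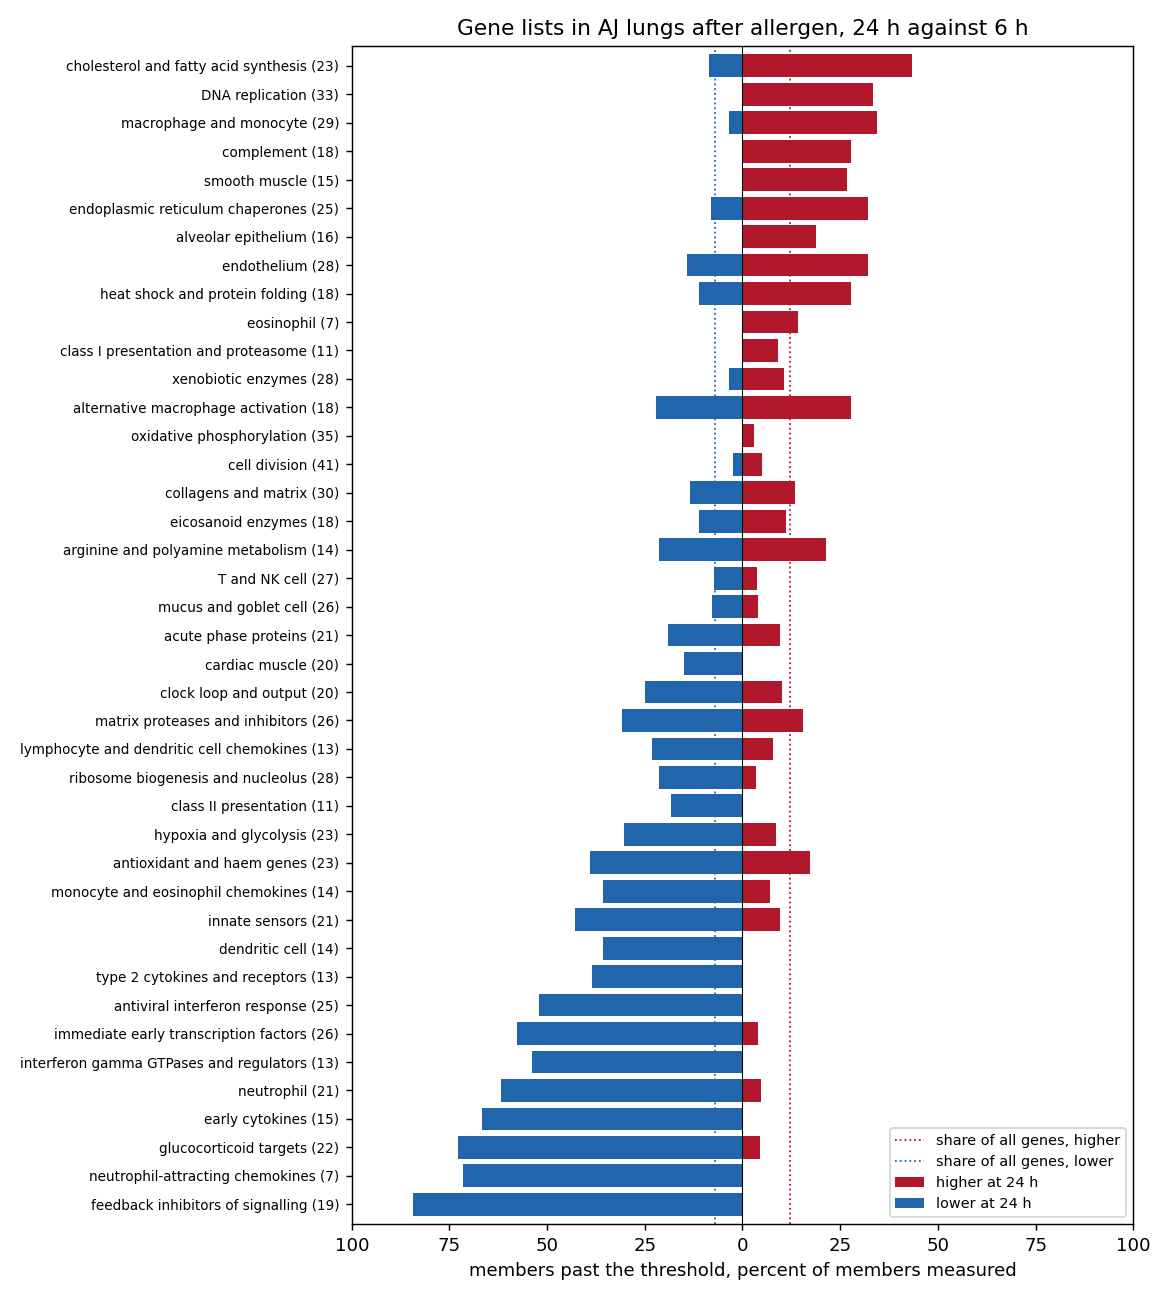
Share of the measured members of each gene list drawn (some cell marker lists with few calls are left out) that passed the test as higher (red, to the right) or lower (blue, to the left) at 24 h against 6 h after allergen in AJ lungs, with the number measured in parentheses. Dotted lines give the shares over all genes, 12.2% higher and 6.98% lower. Feedback inhibitors, with 16 of 19 lower, stand at the bottom, and cholesterol and fatty acid synthesis, with 10 of 23 higher and 2 lower, at the top.

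Part of this time course was also present after saline. In AJ lungs given PBS alone, 666 genes (5.37%) differed between 24 h and 6 h, 359 (2.9%) higher and 307 (2.48%) lower. The difference between the 2 time changes, allergen minus PBS, was then tested gene by gene, and 697 genes (5.62%) passed, 437 (3.53%) with the higher change after allergen and 260 (2.1%) with the lower. With median centring that split was 274 and 337 (44.8% higher, against 62.7%), and the PBS split was 258 higher and 402 lower (39.1%, against 53.9%). Acod1 changed by -3.12 ± 0.32 after allergen and -0.01 ± 0.32 after PBS, a difference of -3.11 ± 0.45 (adjusted p = 1.2e-05). Ptx3 (-2.68), Csf3 (-2.79), Cxcl2 (-2.59) and Zc3h12a (-2.40) had similarly large negative differences on the log2 scale. Of the 19 feedback inhibitors 10 had a lower change after allergen, and of the 21 neutrophil markers 7 did. Immediate early factors also fell in part after PBS, with 7 of 26 lower and 1 higher at 24 h. The difference passed in 6, all with the lower change after allergen. Atf3 changed by -1.33 ± 0.34 and Myc by -1.17 ± 0.17 after PBS. Neither difference passed (adjusted p = 0.916 and 0.0946). Maff changed by -1.55 ± 0.18 and Egr1 by -0.45 ± 0.23 after PBS. Both differences passed (adjusted p = 0.0216 and 0.0305).

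The glucocorticoid and antioxidant groups moved in PBS lungs too. After PBS 13 of the 22 glucocorticoid targets were lower at 24 h and 0 higher, and 6 of the 23 antioxidant and haem genes were lower and 1 higher. By the test of the difference 3 glucocorticoid targets had a lower and 3 a higher change with allergen, and so did 3 and 3 of the antioxidant genes. Gclc changed by -2.12 ± 0.20 after allergen and -1.63 ± 0.20 after PBS, a difference of -0.49 ± 0.29 that did not pass (adjusted p = 0.399). Mt1 changed by -1.84 ± 0.18 after allergen and -1.42 ± 0.18 after PBS (difference -0.42 ± 0.25, adjusted p = 0.416). The 95% interval of the difference ran from -1.07 to 0.09 for Gclc and from -0.93 to 0.09 for Mt1. Some replication genes rose after PBS as well, with 6 of 33 higher and 0 lower, where 2.9% of all genes were higher. The difference between the 2 time changes passed in 0 of the 33. Gmnn changed by 0.87 ± 0.14 after PBS, and its difference of 0.22 ± 0.20 did not pass (adjusted p = 0.625).

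The inducible HSP70 genes fell after PBS and did not pass after allergen in the fit of all groups. Hspa1b, a chaperone made under heat and other stress, read 444, 265, 346, 432 and 322 on the 24 h arrays, against 287, 248, 302, 256 and 310.3 on the 6 h arrays (log2 change 0.33 ± 0.23, adjusted p = 0.375), whereas it changed by -3.36 ± 0.23 in PBS lungs, with means of 215 ± 71.1 at 24 h and 2295 ± 416 at 6 h after PBS (SD, n = 5 each). The difference was 3.69 ± 0.33 (adjusted p = 1.53e-09), the largest positive difference among the genes named. Its near-identical neighbour Hspa1a, whose probes may share transcripts with it, had a difference of 2.99 ± 0.36 and haem oxygenase Hmox1 of 2.67 ± 0.36. Of 18 heat shock genes 7 had a higher change after allergen and 0 a lower. Within allergen lungs 5 were higher and 2 lower at 24 h, and within PBS lungs 0 were higher and 7 lower, with the co-chaperones Chordc1 at 1.03 ± 0.18 and Hsph1 at 0.79 ± 0.18 after allergen. The rises of Cd163 (2.29 ± 0.29 more than after PBS), Sox18 (1.99 ± 0.26) and Meis1 (2.25 ± 0.34) also passed this test, while that of Arg1 did not (1.42 ± 0.48, adjusted p = 0.0717).

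**Figure D4:**
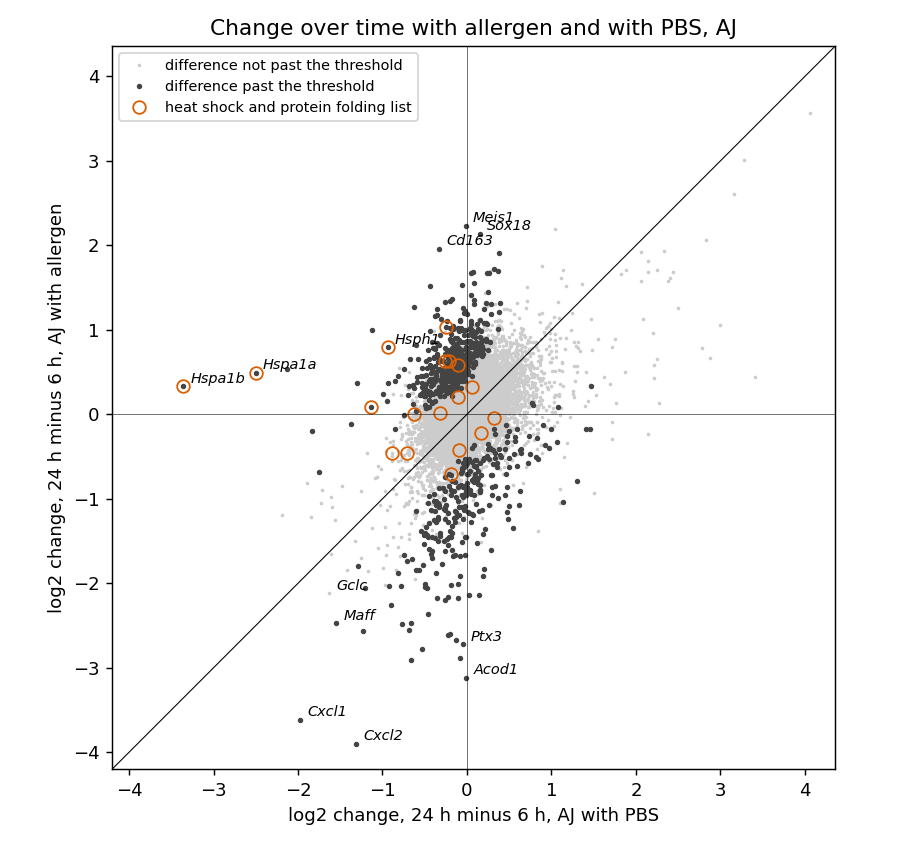
Log2 change between 24 h and 6 h in AJ lungs after allergen (y axis) against the same change after PBS (x axis), 1 point per gene, with the line of equal change. Dark points are the 697 genes whose 2 changes differed at the threshold, and circles mark the 18 heat shock and protein folding genes. Hspa1b lies far to the left near 0 on the y axis, and Acod1 and Ptx3 lie low near 0 on the x axis.

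In C3H lungs given the same allergen, 2581 genes (20.8%) changed between 24 h and 6 h, 1263 (10.2%) higher and 1318 (10.6%) lower. The change in AJ minus that in C3H passed in 453 genes (3.66%), 266 (2.15%) with the higher change in AJ and 187 (1.51%) with the lower. Both the number and the split were unstable. With median centring 65 were higher and 420 lower (13.4% higher, against 58.7%), with quantile normalization 104 and 222 (31.9%), and leaving out 1 array at a time gave 198 to 549 genes, the lowest without AJ 6 h array 2. Without AJ 6 h arrays 1 and 2 together 202 passed, and 249 with the 3'/5' ratio as a covariate. The neutrophil chemokines Cxcl1 and Cxcl2 did not pass, with -3.86 ± 0.33 and -3.05 ± 0.25 in C3H, and the unadjusted 95% interval of the difference ran from -0.72 to 1.19 for Cxcl1 and from -1.56 to -0.15 for Cxcl2. Rnase2a changed by 1.54 ± 0.30 in C3H (interval of the difference -0.86 to 0.84) and Arg1 by 1.46 ± 0.34 (interval -0.73 to 1.20).

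The antiviral interferon genes were where the strains differed most often among the lists. Of the 25 members 11 had a lower change in AJ and 0 a higher, and no other list had more than 4 in either direction. Within C3H 2 were higher and 4 lower at 24 h. The lower count stayed between 9 and 11 under every alternative run for it. Rsad2 had means of 255 ± 52.7 at 24 h and 211 ± 53.3 at 6 h in C3H allergen lungs (SD, n = 5 each), a log2 change of 0.26 ± 0.21 where AJ had -2.06 ± 0.21, and the difference was -2.32 ± 0.30 (adjusted p = 1.8e-05). Ifit2 (-1.65 ± 0.26), Mx2 (-2.04 ± 0.35) and Oasl1 (-1.40 ± 0.23) likewise had lower changes in AJ. Mx2 was near the floor of the scale in C3H allergen lungs, with means of 8.53 ± 3.35 at 24 h and 10.2 ± 3.27 at 6 h (SD, n = 5 each). Among cytokines, Csf3 changed by -0.03 ± 0.35 in C3H, with means of 23.1 ± 12.7 at 24 h and 27.9 ± 25.4 at 6 h near the floor of the scale, a difference of -2.85 ± 0.50 (adjusted p = 0.000624), and Il6 by -0.83 ± 0.21, a difference of -1.79 ± 0.30 (adjusted p = 0.000397).

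Other genes had the higher change in AJ. Cd163 had means of 60.0 ± 22.1 at 24 h and 63.4 ± 7.66 at 6 h in C3H, a log2 change of -0.10 ± 0.20, and the difference was 2.06 ± 0.29 (adjusted p = 2.26e-05). Sox18 had means of 702 ± 43.4 at 24 h and 717 ± 187 at 6 h in C3H, so that neither C3H group was as low as the AJ 6 h group, and the difference was 2.12 ± 0.26 (adjusted p = 8.35e-06). Aldh1a3, which makes retinoic acid, did not pass in AJ (0.38 ± 0.19) and fell in C3H (-1.49 ± 0.19), a difference of 1.88 ± 0.27, or 1.12 with the mean of all probe sets. Hspa1b and Hspa1a fell in C3H, with log2 changes of -1.95 ± 0.23 and -1.80 ± 0.25, and their differences were 2.28 ± 0.33 and 2.29 ± 0.36. The heart muscle gene Myl7 had a difference of -1.90 ± 0.45, beside the muscle signal of AJ 6 h arrays 4 and 5, and its call was lost with the arrays of the 4 groups fitted alone (adjusted p = 0.0724). Of 33 replication genes 11 were higher at 24 h in AJ and 23 in C3H, yet the difference itself passed in 3, all with the lower change in AJ. Of 35 oxidative phosphorylation genes 1 was higher in AJ and 20 in C3H, and the difference passed in 1.

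**Figure D5:**
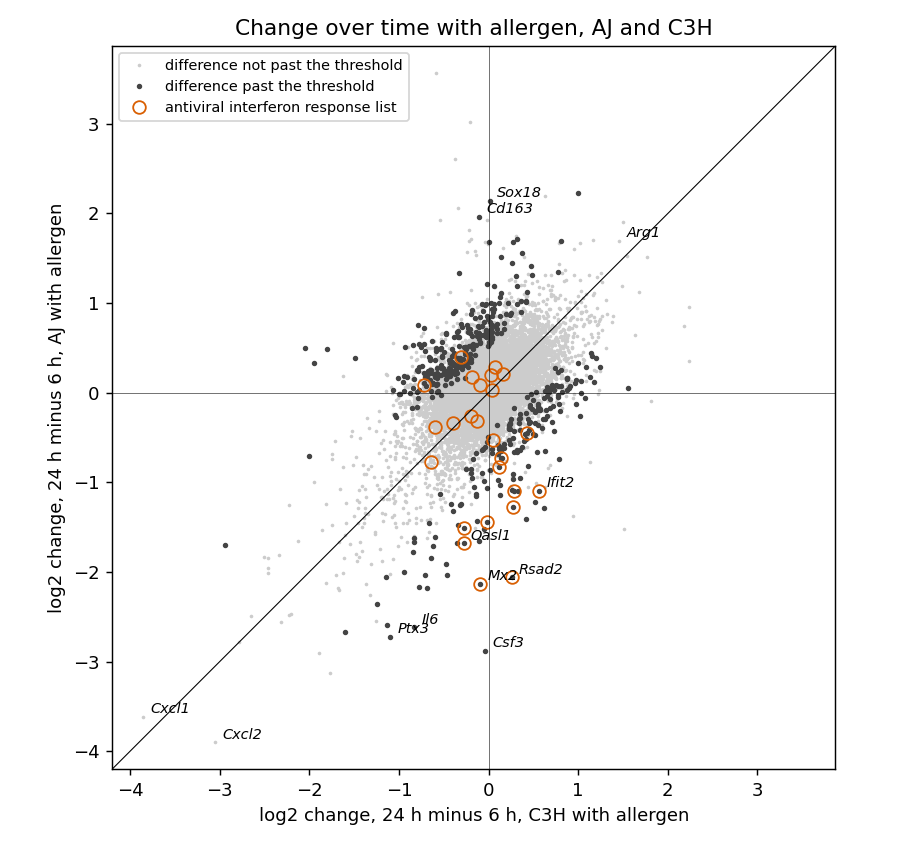
Log2 change between 24 h and 6 h after allergen in AJ lungs (y axis) against the same change in C3H lungs (x axis), 1 point per gene, with the line of equal change. Dark points are the 453 genes whose 2 changes differed at the threshold, and circles mark the 25 antiviral interferon genes. Rsad2 and Mx2 lie low at about 0 on the x axis, and Cxcl1 and Cxcl2 lie near the line at the lower left.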

How the data were processed

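RNA from whole mouse lungs was read on 40 Affymetrix arrays of one colour. Strain (AJ or C3H), treatment (allergen or PBS) and time (24 h or 6 h) define 8 groups of 5, as the titles give them. The deposited values were linear intensities of 22690 probe sets. Their 2% trimmed means lay between 149.988 and 149.991 on all arrays, which shows scaling to a common mean by the authors, while their medians ran from 63.7 to 81.3. The software that made them is not given in the sources used here. As arrays carry no read depth, the number of arrays limits the precision.

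The 64 control probe sets were left out. Of the rest 20380 had 1 gene symbol in the platform annotation, 691 several and 1555 none, and only the first kind was used. The probe set with the highest mean log2 level stood for each of 12393 genes, of which 4956 had more than 1. Values were log2(intensity + 16). Of the values 13.6% lay below 16, and fold changes of dim genes are understated on this scale. Intensities printed for 1 gene are not compared with those of another.

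The functions lmFit and eBayes of limma 3.58.1 (R 4.3.3) fitted the means of the 8 groups over all 40 arrays, with two-sided p-values adjusted by Benjamini-Hochberg over all genes and a threshold of 0.05. Adjusted p-values in the text come from that fit unless another is named, values after ± without a label are standard errors, and 95% intervals are not adjusted for the number of genes. Differences between time changes were tested as interaction terms. The fit was tested on simulated data. Tests of array quality were exact permutation tests.

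The groups, gene lists and rules were chosen with earlier results of these data known. Genes were named by a rule: the 20 largest rises and 20 largest falls that passed without overlap of the groups and with a group mean of at least 7 on the log2 scale, the 4 largest passing members of each list, the 6 largest differences of each sign from PBS and from C3H, and 16 further genes of the type 2, clock, stress and cycle programmes. Gene lists were written from general knowledge of pathways and cell types.

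The alternatives were quantile normalization, median centring, 1 or 64 in place of 16, the dimmest 25% of genes left out, the mean of all probe sets, only the arrays of the groups compared, limma-trend with robust eBayes, array quality weights, the replicate number as a block, and each array left out in turn. Added after seeing the data were fits without AJ 6 h arrays 1 and 2, without AJ 6 h arrays 4 and 5, and with the log2 3'/5' ratio of the Gapdh control probes as a covariate. Promoter sequences are those of RefSeq for build GRCm38.p6.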

Additional observations from a re-analysis of the deposited data

Results flagged for a closer look

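Every gene described was searched, and every marker list whose summed intensity is given, the latter by the mean log2 level of its members. The 5 arrays of each allergen time were searched for 1 array set apart from the other 4 by most of the group's range, on the log2 scale. Of 258 groups tested 14 had such an array, and chance alone flags about 1 in 20. Array 5 at 24 h was the lowest for Cxcl1 (6.04, the others 7.27 to 7.60), Timp1 (9.08, the others 10.22 to 10.43), Thbs1 (8.43) and Col6a2 (10.76), and the highest for Ramp2 (11.33, the others 10.73 to 10.80). The same array was the lowest for Ptger4 (7.13). Array 1 at 24 h was the highest for Ccl8 (11.14) and Chil3 (11.73). Array 2 at 24 h was the highest for Ccl20 (5.35), and array 3 at 24 h was the lowest for Nfil3 (5.64) and the highest for the T and NK cell markers (mean level 6.98, the others 6.18 to 6.36). At 6 h array 2 was the lowest for Cd163 (5.56, the others 6.33 to 6.55), array 1 the highest for Clec4e (8.98), and array 5 the lowest for Il13 (4.79, the others 5.74 to 5.83).

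The change between 24 h and 6 h after allergen differed between AJ and C3H in 453 genes by the interaction test. Among the genes described, the change in AJ was lower than in C3H on the log2 scale by the following differences: -2.85 in Csf3, -2.32 in Rsad2, -2.04 in Mx2, -1.90 in Myl7, -1.79 in Il6, -1.65 in Ifit2 and -1.40 in Oasl1. It was higher by 2.29 in Hspa1a, 2.28 in Hspa1b, 2.12 in Sox18, 2.06 in Cd163 and 1.88 in Aldh1a3.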

How the results depend on the processing

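The number of genes that changed between 24 h and 6 h in AJ allergen lungs was 2373, and it ran from 1892 without 6 h arrays 1 and 2 to 2967 with array quality weights. The balance of directions was less firm, with 818 higher and 1319 lower under median centring. Leaving out 1 array at a time gave 1977 to 2219 genes, 1244 to 1420 higher and 733 to 804 lower. The difference from PBS passed in 697 genes, in 592 to 825 without 1 array and in 1118 with array quality weights. The difference between AJ and C3H was the least stable count. It was 453 in the fit reported, 239 with only the arrays of its 4 groups, 202 without AJ 6 h arrays 1 and 2 and 249 with the 3'/5' ratio as a covariate. Without 1 array it ran from 198 to 549, and it moved by more than 1.5 times without AJ 24 h array 2 or 4, AJ 6 h array 2 or 3, C3H 24 h array 1 or C3H 6 h array 1 or 4. The PBS time change passed in 666 genes, in 407 with only its own arrays, in 1149 with array quality weights and in 342 to 790 without 1 array (lowest without PBS 6 h array 2 or 3). The C3H time change ran from 1873 to 2619 without 1 array. The cause of these shifts was not tested. With the replicate number as a block 2399 genes passed in the main comparison, 711 against PBS, 476 against C3H, 690 in PBS and 2634 in C3H. Same-numbered 24 h and 6 h arrays had correlations of deviations between -0.257 and 0.0947, and none correlated best with its own number. With so few arrays this cannot show that the numbers carry no pairing. List counts of 1 or 2 calls often moved with 1 array. Among the genes named by the rule, no change in AJ allergen lungs that passed reversed its direction under the alternatives run. This was not checked for the other genes. Differences from PBS or C3H were run only for the genes with the 6 largest of each sign, and none of these reversed. Among the results so run, calls were lost in some alternative for Il5, Il13 and Myl7. The other differences printed were not run under the alternatives. Conversely Hspa1a passed in allergen lungs with only the arrays of its groups (0.49, adjusted p = 0.00253), Aldh1a3 with the mean of all probe sets (0.49, adjusted p = 0.00145) and Hmox1 without 24 h array 2 (0.745, adjusted p = 0.0357). With 64 added in place of 16, 26 of the 127 called changes and differences that were run for named genes were smaller by more than 1.5 times. Dim genes are limited by the signal over background.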

Other observations

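The remaining structural and metabolic lists are given beside the shares over all genes, 12.2% higher and 6.98% lower. Smooth muscle markers were higher at 24 h in 4 of 15 and lower in 0, led by leiomodin Lmod1 (log2 change 1.31 ± 0.21, adjusted p = 1.25e-05). That count was 2 without 6 h array 1 and 1 without 6 h arrays 1 and 2. Club cell markers were higher in 2 of 16, fibroblast markers higher in 1 and lower in 1 of 19, and mast cell and basophil markers lower in 1 of 13, the histamine-making enzyme Hdc (-1.08 ± 0.27), which neutrophils also express. In the arginine and polyamine list 3 of 14 were higher and 3 lower. Here the arginases parted: Arg1 rose (1.69 ± 0.34), while Arg2, the mitochondrial arginase, fell with 103, 81.2, 71.1, 84.9 and 81.0 on the 24 h arrays, against 286, 266, 309, 279.7 and 265 on the 6 h arrays (log2 change -1.57 ± 0.17, adjusted p = 1.25e-08), and ornithine decarboxylase Odc1 fell as well (-0.70 ± 0.13). Without 24 h array 2 or 4 the higher count was 1. Acute phase proteins were higher in 2 of 21, with the protease inhibitor Serpina3n at 0.84 ± 0.19, and lower in 4. Class II presentation was lower in 2 of 11, with the costimulator Cd86 at -0.95 ± 0.15, and class I presentation was higher in 1 of 11. Eicosanoid enzymes were higher in 2 and lower in 2 of 18, among them Ptger4, a receptor of prostaglandin E2 (-0.74 ± 0.13). Xenobiotic enzymes were higher in 3 of 28, with Fmo1 at 0.94 ± 0.14, and lower in 1.

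The largest changes that did not pass were those of squamous epithelium genes, singled out after their values were seen. Krt4, a keratin of stratified epithelium, had intensities of 3329, 1020.0, 730.1, 915 and 7.83 on the 24 h arrays, against 5.98, 6.96, 6.45, 6.70 and 932 on the 6 h arrays. The gene was therefore bright on 4 of 5 arrays at 24 h and on 1 of 5 at 6 h (log2 change 3.57 ± 1.58, adjusted p = 0.114). Krt13 and Krtdap were bright on the same 5 arrays, with log2 changes of 3.02 and 2.60 (adjusted p = 0.120 and 0.126). In PBS lungs Krt4 changed by 4.06 (adjusted p = 0.121), which also did not pass.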
